A study of Mus musculus with 6 samples.

Results

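The myosin binding protein C and H family was represented by 5 genes, *Mybpc1*, *Mybpc2*, *Mybpc3*, *Mybph* and *Mybphl*, chosen by their symbols among the 54525 genes counted, and all 5 symbols were found. RNA-seq was performed on C2C12 cells, an established mouse myoblast line that fuses into myotubes in culture. All cultures were labelled WT with no treatment, so both groups shared the genotype and differed in stage: 3 libraries came from myoblasts (day 0, D0) and 3 from myotubes after 5 days of differentiation (D5). Per the study's methods, cells grew in medium with fetal bovine serum and differentiated in medium with horse serum, so time and medium cannot be told apart. All libraries came from 1 cell line, and in such bulk RNA fewer cells of a type and less RNA per cell cannot be told apart. The labels give 3 samples of cultured cells at each stage without saying whether they were separate cultures, so p-values measure only the spread between these samples, which may be technical.

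Myosin binding protein C (MyBP-C) sits in regular stripes on the thick filament of the sarcomere, where its immunoglobulin and fibronectin domains bind myosin and titin and its free end can reach actin. It tunes how myosin heads engage the thin filament, and phosphorylation of the cardiac form changes that effect. *Mybpc1* encodes the slow skeletal form, *Mybpc2* the fast skeletal form and *Mybpc3* the cardiac form, in which mutations cause hypertrophic cardiomyopathy. *Mybph* encodes the shorter MyBP-H of skeletal muscle, and *Mybphl* a relative of MyBP-H known from the heart.

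*Mybpc1*, *Mybpc2* and *Mybph* were higher in all 3 D5 libraries than in any D0 library, *Mybpc3* went from no counts to a few counts, and *Mybphl* had no count in any library. *Mybph* was by far the most abundant member in myotubes, at 1854 ± 42.2 TPM (SD, n = 3; counts divided by exonic length and scaled to sum to 1000000), and the 2 skeletal MyBP-C genes followed at 50.4 ± 1.96 TPM for *Mybpc1* and 31.0 ± 1.02 TPM for *Mybpc2*. Libraries held 36555048 to 40895840 counts on genes at D0 and 25449759 to 25811300 at D5. At most 3 counts in a library was taken as no detection, a limit that covers counting error only. Of 16290 genes tested with edgeR's quasi-likelihood test, 42.2% were higher at D5 and 40.8% were lower (Benjamini-Hochberg adjusted p under 0.05), and all 3 members that passed the filter on low counts were higher. *Mybpc3* and *Mybphl* did not pass it. *Mybpc2* passed it through its D5 counts alone, so it could not have been called lower. The same holds for tested genes of the lists below that had only a few counts at D0. With no scaling or with scaling to the ERCC spike-in RNAs the median log2 fold change of all genes moved from 0.00 to -0.68 and -0.58, and the share of calls that were higher moved from 50.8% to 23.4% and 32.6%. Fold changes with no scaling keep the lower depth of the D5 libraries, so a change of direction under that setting includes depth. The 3 members were called higher with each scaling tried. The ERCC share of counts differed between the D5 libraries, at 1.20%, 0.720% and 2.09% in replicates 1 to 3. At D0 it was 0.859%, 0.828% and 0.726%. Calls lost with ERCC scaling may thus reflect added spread between replicates, which was not tested.

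The 250 bases before the start of each gene are the stretch where muscle transcription factors often bind, and the windows of the 4 members with counts are printed here to show how they differ. Sequences are from RefSeq on GRCm38.p6, 5′ to 3′ on the gene's own strand, with matches in capitals. The motifs searched on both strands were the E-box CANNTG, bound by MyoD and myogenin, the MCAT element CATTCC, bound by TEAD factors, and the MEF2 site.
Mybph, chr1:134193198-134193447, plus strand: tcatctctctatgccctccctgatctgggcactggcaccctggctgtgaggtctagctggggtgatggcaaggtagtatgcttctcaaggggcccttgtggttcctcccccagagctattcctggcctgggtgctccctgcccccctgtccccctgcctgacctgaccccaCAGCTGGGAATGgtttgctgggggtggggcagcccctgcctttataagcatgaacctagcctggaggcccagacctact
Mybpc1, chr10:88605153-88605402, minus strand: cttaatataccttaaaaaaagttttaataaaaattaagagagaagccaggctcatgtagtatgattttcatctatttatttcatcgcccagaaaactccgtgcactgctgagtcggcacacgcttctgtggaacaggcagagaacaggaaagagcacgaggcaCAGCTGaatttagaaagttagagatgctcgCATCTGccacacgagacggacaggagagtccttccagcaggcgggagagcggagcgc
Mybpc2, chr7:44524670-44524919, minus strand: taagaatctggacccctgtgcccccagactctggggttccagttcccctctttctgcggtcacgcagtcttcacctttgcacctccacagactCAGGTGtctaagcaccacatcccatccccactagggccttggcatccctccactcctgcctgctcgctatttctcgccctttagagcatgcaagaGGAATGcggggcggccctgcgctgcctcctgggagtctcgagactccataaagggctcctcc
Mybpc3, chr2:91117894-91118143, plus strand: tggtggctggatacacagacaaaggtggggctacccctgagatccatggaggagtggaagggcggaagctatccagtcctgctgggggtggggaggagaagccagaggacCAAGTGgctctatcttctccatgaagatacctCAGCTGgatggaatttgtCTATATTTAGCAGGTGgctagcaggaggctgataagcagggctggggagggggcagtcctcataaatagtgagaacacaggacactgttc
In *Mybph* an E-box at -79 to -74 from the start abutted an MCAT element at -73 to -68, without overlap. *Mybpc1* had 2 E-boxes, at -87 and -57, and neither of the other motifs. *Mybpc2* had 1 E-box at -157 and an MCAT element at -62, counted from the RefSeq start, which lies 13 bases upstream of the start in the gene annotation used for the positions given for the genes. For the other windows both starts were the same. *Mybpc3*, the member with the fewest counts among these, had 3 E-boxes and a MEF2 site at -90 to -81 that ran directly into the last of them. The *Mybphl* window held none of the 3 motifs. Among 32851 such windows of mouse genes, 66.2% held an E-box, 12.6% an MCAT element and 2.92% a MEF2 site, so an E-box match was common and these matches describe letters, not bound sites.

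*Mybpc1* (ENSMUSG00000020061.17) lies on the minus strand of GRCm38 at chr10:88518279-88605152, with 29 exons in its longest transcript. Its slow skeletal MyBP-C transcript was counted 46, 33 and 28 times in the D0 libraries and 1869, 1860 and 1764 times in the D5 libraries. Every D5 library lay far above every D0 library, and the D0 libraries already held some transcript, above the limit of 3 counts in each. In counts per 1000000 (CPM) the mean level was 0.903 ± 0.285 in myoblasts and 73.6 ± 2.39 in myotubes (SD, n = 3). The log2 fold change was 6.36 ± 0.0864 (SE), an 82.0-fold increase (edgeR adjusted p = 2.004e-32).

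*Mybpc2* (ENSMUSG00000038670.11) lies at chr7:44501699-44524656 on the minus strand, with 28 exons in its longest transcript. This fast skeletal form had 0, 0 and 2 counts at D0 and 887, 935 and 875 at D5. Unlike *Mybpc1*, it was not detected in any D0 library, so the increase has only a lower bound, at least 480-fold against 3 counts per library. The D5 level was 36.1 ± 1.56 CPM (SD, n = 3), and the edgeR adjusted p was 3.226e-30. The fitted log2 fold change of 10.78 rests on those 2 counts, since without D0 replicate 3 it became 13.12.

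*Mybpc3* (ENSMUSG00000002100.15) lies at chr2:91118144-91136516 on the plus strand, with 35 exons in its longest transcript. The cardiac form had no count in the 3 D0 libraries and 6, 7 and 2 counts at D5, so 2 of the 3 D5 libraries exceeded the detection limit. The 15 counts at D5 correspond to 0.201 CPM, with an exact Poisson 95% interval of 0.112 to 0.331 CPM. This interval pools the D5 libraries and covers counting error only, not spread between replicates. D5 replicate 3 alone lay below it, at 0.0804 CPM. The D5 mean was 2.67-fold the CPM of 3 counts at D0, while D5 replicate 3 was itself not detected. The gene was too low for the test as planned, and without the filter on low counts edgeR gave a log2 fold change of 5.70 and an adjusted p of 2.622e-05. With no count at D0 it could not have been called lower, and 5.70 is a fitted value and no measured fold. *Mybphl* (ENSMUSG00000068745.6, chr3:108364911-108380057, plus strand, 9 exons) had 0 counts in all 6 libraries. A count of 0 allows up to 3 counts, which for this short gene is 0.194 to 0.297 TPM across the libraries, so low expression was not detectable at this depth.

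*Mybph* (ENSMUSG00000042451.12) lies at chr1:134193448-134201232 on the plus strand, with 10 exons in its longest transcript. It was counted 145, 151 and 136 times at D0 and 34329, 35629 and 34026 times at D5. The D0 libraries were close together and well above detection, and the D5 libraries were again close together. The level went from 3.61 ± 0.247 CPM to 1393 ± 45.4 CPM (SD, n = 3). This is 386-fold, or 8.59 ± 0.0541 (SE) on the log2 scale (edgeR adjusted p = 2.362e-40). Among 15651 genes with more than 3 counts in at least 1 library of each group, the fold of *Mybph* ranked 39 and that of *Mybpc1* ranked 135, counted from the largest increase. Among all 16290 genes tested, those undetected at D0 included, the ranks were 138 and 404, or 57 and 213 with undetected genes at their lower bound. By TPM, *Mybph* went from rank 10883 to rank 40 of 54488 genes.

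**Figure D1:**
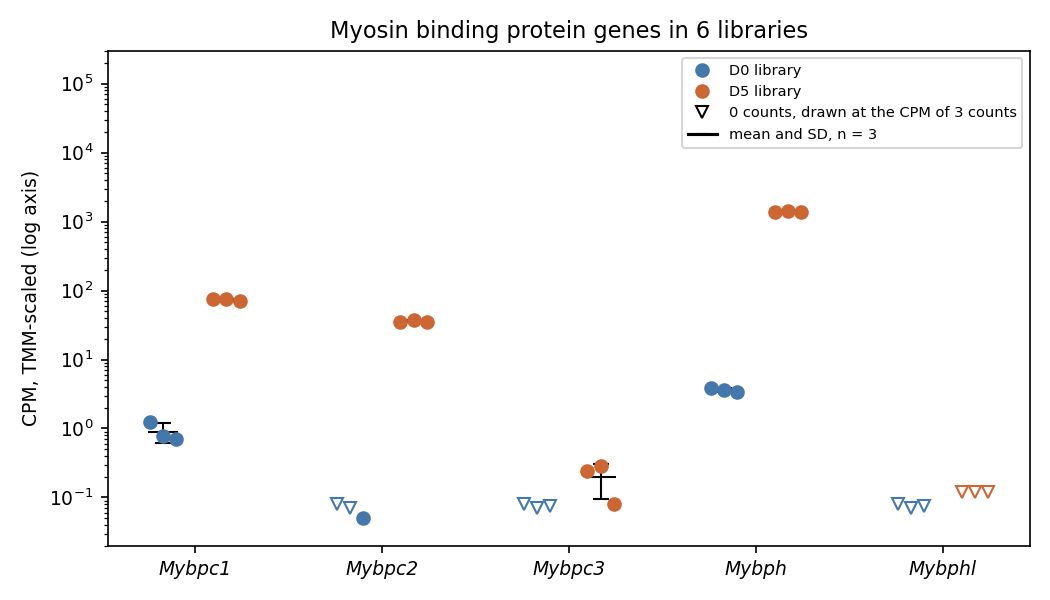
CPM (log axis, TMM-scaled) of the 5 genes in each D0 library (blue) and D5 library (orange), with lines for the mean and SD (n = 3) and open triangles for libraries with 0 counts, drawn at the CPM of 3 counts. *Mybph*, *Mybpc1* and *Mybpc2* stood apart between D0 and D5, *Mybpc3* stayed near the limit at D5, and *Mybphl* had triangles alone.

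Part of the *Mybph* locus is shared. Its end lies tail to tail with *Adora1*, an adenosine receptor gene on the minus strand at chr1:134199223-134235431, and 49.9% of the exonic length of *Mybph* overlaps exons of *Adora1*. Whether the counting used strand was not stated, so reads from the shared stretch cannot be assigned to 1 of the 2 genes with certainty. *Adora1* itself was listed with 0, 1 and 3 counts at D0 and 82, 68 and 57 at D5, an increase of at least 36.8-fold. These are few beside the 34026 to 35629 counts of *Mybph* at D5. The part of *Adora1* reads that came from *Mybph* was not tested. The other members had at most 6.98% of their exonic length in common with opposite-strand genes, and no stretch of 50 bases was common to transcripts of any 2 members.

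Because transcripts differ in length, levels of the members were compared as TPM. At D0 the order was *Mybph* with 5.36 ± 0.284 TPM and *Mybpc1* with 0.687 ± 0.206 TPM (SD, n = 3), which did not overlap, while the other 3 genes were at or under the detection limit and could not be ordered. At D5 the order was *Mybph*, *Mybpc1*, *Mybpc2* and then *Mybpc3* at 0.150 ± 0.0793 TPM. The lowest D5 library of *Mybpc1*, at 48.3 TPM, was above the highest of *Mybpc2*, at 32.0 TPM. *Mybpc3* and *Mybphl* could not be ordered, since 3 counts of the shorter *Mybphl* would give at least 0.291 TPM at D5 and the highest *Mybpc3* library had 0.208 TPM. *Mybph* made up 88.5 ± 2.2% of the summed TPM of the family at D0 and 95.8 ± 0.0684% at D5. *Mybpc1* went from 11.2 ± 2.46% to 2.60 ± 0.0676% of the sum although its own level rose, and *Mybpc2* stood at 1.60 ± 0.0169% at D5. In an alternative chosen after seeing the data, the length of each listed gene was cut to the exonic bases that no opposite-strand gene overlaps. All counts were kept, so its values hold only if no read from the shared bases was counted. The D5 share of *Mybph* was then 97.7%, and those of *Mybpc1* and *Mybpc2* were 1.41% and 0.865%. With counts not divided by length, *Mybpc1* had 4.90% and *Mybpc3* 0.0133%.

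The proteins of this family bind the myosin filament, so their transcripts were set against those of the sarcomeric myosin heavy chains. The summed TPM of *Myh1*, *Myh2*, *Myh3*, *Myh4*, *Myh7* and *Myh8* went from 3.64 ± 0.337 at D0 to 4862 ± 100.1 at D5 (SD, n = 3). The summed TPM of *Mybpc1*, *Mybpc2* and *Mybpc3* went from 0.703 ± 0.190 to 81.6 ± 2.81. The MyBP-C sum was 23.5%, 18.4% and 15.8% of the myosin sum in the D0 libraries and 1.69%, 1.69% and 1.65% in the D5 libraries. The ratio was thus lower in every D5 library, with the D0 ratio resting on low values of both sums. For *Mybph* the same ratio was 148 ± 13.9% at D0 and 38.1 ± 0.313% at D5, again without overlap. The ratio of *Mybph* to *Mybpc1* moved the other way, from 8.15 ± 1.78 at D0 to 36.8 ± 0.968 at D5. With lengths cut to exonic bases free of opposite-strand overlap and all counts kept, the D5 values were 73.5% for *Mybph* to myosin and 69.4 for *Mybph* to *Mybpc1*. With counts not divided by length they were 14.2% and 18.9. Each of these 3 ratios had p = 0.1 in a two-sided exact permutation test, before and after Benjamini-Hochberg adjustment over the 3, the smallest p that 3 libraries against 3 allow, so the design cannot reach 0.05.

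The partners of MyBP-C in the thick filament were also higher. Of 19 listed genes 18 were tested, and all 18 were higher at D5, beside 42.2% of all genes tested. Their median log2 fold change was 9.07, or 8.60 with genes undetected at D0 set at their lower bound, against 0.00 for all genes tested. *Myh4*, *Myh6*, *Myh8* and *Myl2* passed the filter through their D5 counts alone, so they could not have been called lower. *Myh3*, the embryonic myosin heavy chain, rose from 0.968 ± 0.208 to 2406 ± 62.3 TPM (SD, n = 3), a log2 fold change of 11.44. *Myh1* (9.72) and *Myh4* (14.02), fast adult chains, and *Myh7* (10.92), the slow chain, also rose. *Mylpf*, the fast regulatory light chain, rose by 9.14 on the log2 scale, and *Myom3*, an M-band protein, by 9.20. *Ttn*, which encodes the titin to which MyBP-C binds, changed least of the 18, by 1.99 on the log2 scale from 178 ± 3.38 to 633 ± 4.65 TPM. The untested gene was *Myl3*, a slow light chain with 0 to 5 counts per library. In myotubes *Mybph* stood among the most abundant of these genes, below *Myh3* and overlapping *Myh1* (1767 to 1870 TPM over 3 libraries). That order depends on the length used. With lengths cut to the exonic bases that no opposite-strand gene overlaps and all counts kept, *Mybph* had 3659 ± 82.7 TPM. It then lay above *Myh3* at 2379 ± 60.9 TPM and *Myh1* at 1950 ± 57.9 TPM (SD, n = 3). *Mybpc1* lay below *Myh7* at 95.7 ± 10.6 TPM (SD, n = 3), and overlapped *Myh8*, the perinatal chain, at 45.6 ± 2.86 TPM. *Mybpc2* lay just under *Myl2* (32.4 to 43.0 TPM) and above *Myh7b* (18.8 ± 1.87 TPM).

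**Figure D2:**
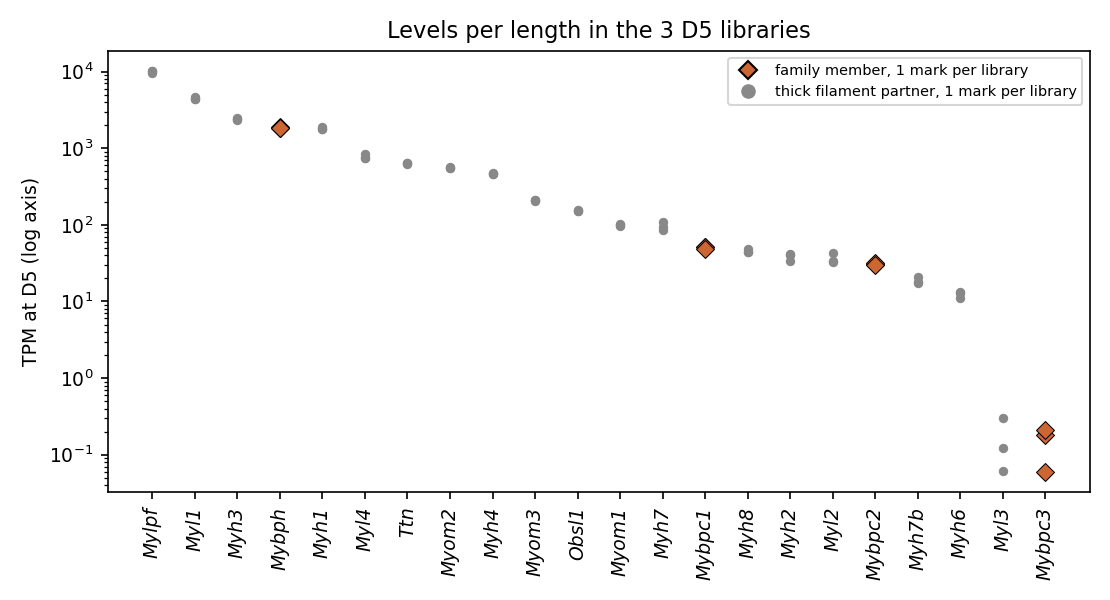
TPM (log axis) in each of the 3 D5 libraries for the family members with counts (diamonds) and 18 of the thick filament partners (gray circles), in order of the mean. With full exonic lengths *Mybph* (1810 to 1893 TPM) stood beside *Myh1* and *Myh3*, *Mybpc1* (48.3 to 52.1 TPM) and *Mybpc2* (30.0 to 32.0 TPM) stood far lower, and *Mybpc3* was at the bottom with *Myl3*.

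Thin filament genes rose in 17 of 18 cases, beside 42.2% of all genes tested, with a median log2 fold change of 5.94. The count was 16 with DESeq2, 15 with no scaling and 14 with ERCC scaling. *Tnni2*, the fast troponin I, rose by 8.73, *Tnnc2*, the fast troponin C, by 12.11, and *Acta1*, skeletal actin, by 7.32 on the log2 scale. *Neb*, the giant nebulin along the thin filament, rose by 8.92. *Tpm3* had 245 ± 11.5 TPM at D0 and 229 ± 9.98 TPM at D5 (SD, n = 3) and did not pass the test (edgeR adjusted p = 0.0946). The increase of *Tmod4* (0.59), a tropomodulin, was no longer called without D5 replicate 2 or with DESeq2, and the count of genes called was 16 to 18 without single libraries. The increases of *Tmod4* and *Tpm1* (0.60), a tropomyosin, turned to -0.09 and -0.08 with no scaling, which keeps the lower depth at D5. They were not called with ERCC scaling.

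**Figure D3:**
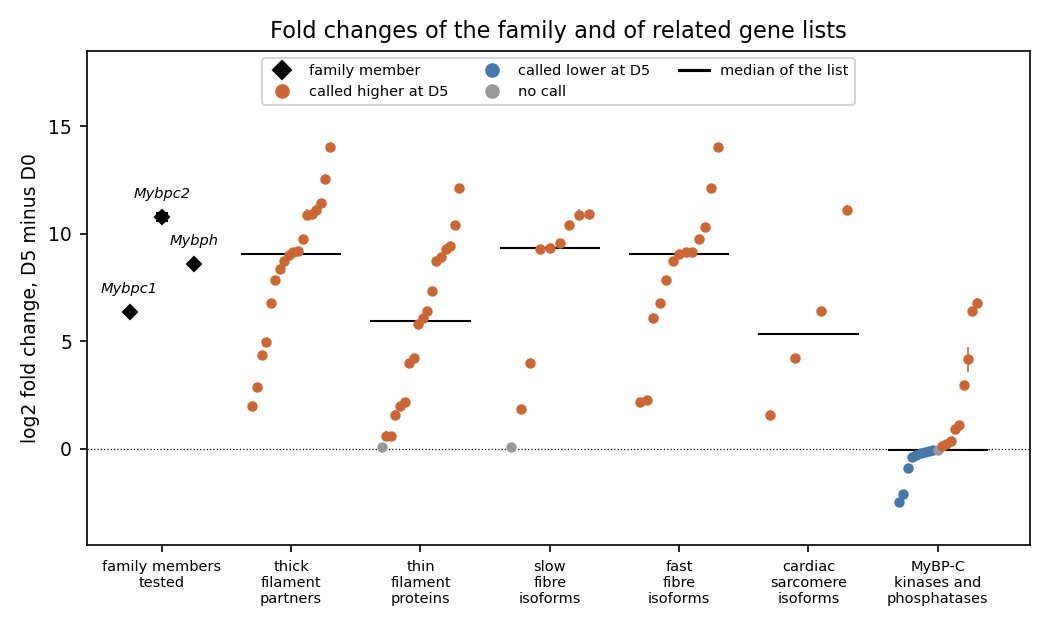
Log2 fold change (D5 minus D0, edgeR) of the 3 tested members (black diamonds, bars are SE) and of each tested gene in 6 lists of related genes, colored by call, with a line for each list's median. Filament and fiber-type genes lie above 0 with *Tpm3* near 0, and the kinases and phosphatases lie on both sides.

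*Mybpc1* and *Mybpc2* are the slow and fast forms of one protein, and genes of both fiber types rose in the same cultures. Of 10 slow fiber genes 9 were tested and 8 were higher at D5, and of 13 fast fiber genes all 13 were higher, beside 42.2% of all genes tested. The median log2 fold changes were 9.34, or 9.30 with *Myl2* at its lower bound, and 9.05. The slow form made up 100%, 100% and 91.8% of the *Mybpc1* and *Mybpc2* TPM in the D0 libraries and 62.7%, 61.3% and 61.7% in the D5 libraries. As *Mybpc2* was not detected at D0, those first 3 shares could be as low as 92.4%, 89.8% and 88.2%, its value at 3 counts. The 3 D5 libraries thus lay close together and below every D0 library. Other slow and fast pairs, formed after their values were seen, are given as a description. The slow share was lower at D5, as a mean of 3 libraries, from 61.7% to 27.6% for *Tnnt1* over *Tnnt3* (troponin T), from 99.0% to 38.2% for *Atp2a2* over *Atp2a1* (calcium pumps), from 95.3% to 74.0% for *Tnnc1* over *Tnnc2* and from 83.5% to 71.4% for *Casq2* over *Casq1* (calsequestrins). It was higher at D5, from 20.8% to 45.5% for *Tnni1* over *Tnni2* and from 2.80% to 83.2% for *Myoz2* over *Myoz1* (Z-disc myozenins). Levels of *Tnnc2* and *Atp2a1* include exons that overlap an opposite-strand gene.

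**Figure D4:**
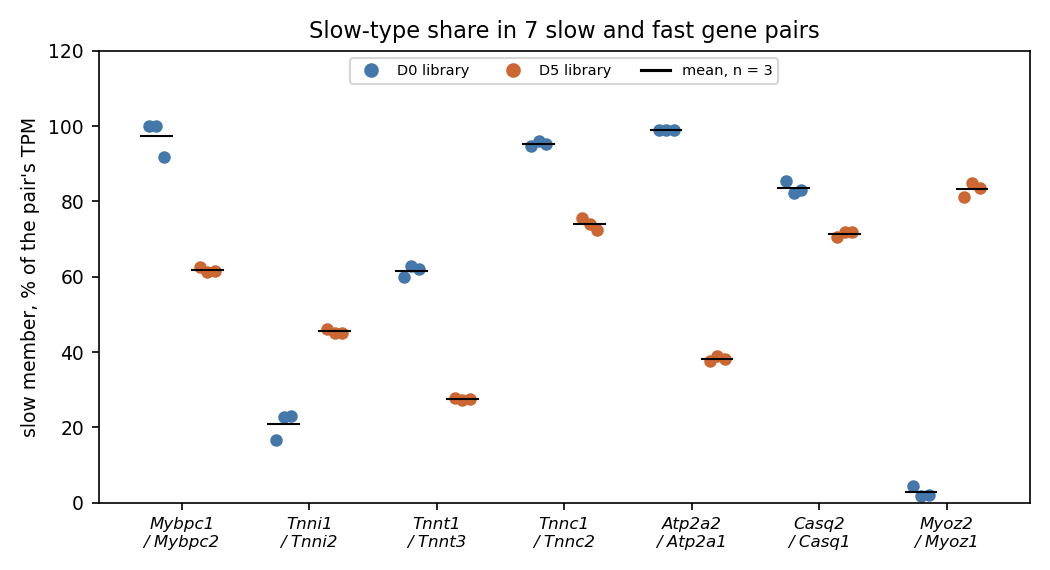
TPM of the slow member as a percentage of the TPM of both members for 7 slow and fast gene pairs, in each D0 (blue) and D5 (orange) library, with lines for the means. *Mybpc1* and *Mybpc2* ended at 61.9 ± 0.709% slow at D5 (SD, n = 3), and the mean share was lower at D5 in 5 pairs and higher in 2.

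*Mybpc3* and *Mybphl* are best known from heart, and other cardiac sarcomere genes were read beside them. Of 5 listed, 4 were tested and all 4 were higher at D5, beside 42.2% of all genes tested. *Actc1*, cardiac actin, reached 1510 ± 117 TPM and *Tnnt2*, cardiac troponin T, 849 ± 33.3 TPM (SD, n = 3), both also known from developing skeletal muscle. *Myh6*, a cardiac myosin heavy chain, reached 12.3 ± 1.19 TPM and was at least 355-fold higher, while *Tnni3*, cardiac troponin I, went from 0.990 ± 0.238 to 2.68 ± 0.268 TPM. *Myl7*, an atrial light chain, had 1 count in all 6 libraries together. The increase of *Tnni3* was not called with ERCC scaling. Of 8 cardiomyocyte markers, *Tbx5* and *Hand2* were at 0 and *Nppa* and *Pln* at 3 counts or fewer in every library. *Ryr2*, also not tested, had 0, 2 and 1 counts at D0 and 4, 3 and 2 at D5. None of the 3 tested was higher, and *Nkx2-5* (-0.89) and *Nppb* (-3.09) were lower. The third, *Gata4*, was detected at both stages, at 15.0 ± 0.551 TPM and 12.9 ± 0.122 TPM (SD, n = 3), and was not called. With scaling to total counts or no scaling all 3 were lower. The summed level of the 8 markers was 30.7 to 31.4 TPM at D0 and 17.2 to 19.4 TPM at D5.

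Markers of other cell types were checked as well. Of 6 smooth muscle markers 5 were tested. *Acta2*, *Cnn1* and *Tagln* were lower at D5, and *Smtn* passed in neither direction. *Des*, which skeletal muscle also expresses, was higher, a call not made with no scaling or ERCC scaling. The summed level of the 6 smooth muscle markers went from between 7563 and 7806 TPM to between 4260 and 4367 TPM. Endothelial and blood markers summed to 9.51 to 9.92 TPM at D0 and 4.73 to 6.34 TPM at D5, and of these 7 genes *Adgre1* and *Hbb-bs* were at 0 and *Cdh5* and *Ptprc* at 3 counts or fewer in every library. Both genes of the list that were tested were detected at D0 and lower at D5. *Kdr*, a VEGF receptor, had 90, 118 and 92 counts at D0 and 5, 6 and 5 at D5 (log2 fold change -3.52). *Cd68*, a macrophage marker, had 124, 130 and 123 counts at D0 and 57, 63 and 46 at D5 (-0.50), a call not made with ERCC scaling. Whether these levels have a part in the values of the family was not tested.

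MyBP-C is regulated by phosphorylation, and 19 genes listed as its kinases and phosphatases, or as their subunits, were read beside the family. Which form of MyBP-C, slow, fast or cardiac, each acts on was not considered. At D5, 9 were higher (47.4%), 9 were lower (47.4%) and *Rps6ka3* passed in neither direction, with a median log2 fold change of -0.05. These shares lie near the 42.2% and 40.8% of all genes tested. The largest increases were in *Camk2a*, a calcium/calmodulin kinase subunit that rose by 6.38 from 39, 39 and 48 counts to 2179, 2274 and 2124 counts, and in *Camk2b*, which had 3 counts in each D0 library and 223, 226 and 196 at D5, at least 115-fold more. *Prkaca*, the catalytic subunit of protein kinase A, rose by 0.90 on the log2 scale and its regulatory subunit *Prkar1a* by 1.09. *Prkd1*, protein kinase D, fell by 2.46 on the log2 scale and the regulatory subunit *Prkar2b* fell by 2.11. The increases of *Camk2d* (0.35), *Prkce* (0.19) and *Camk2g* (0.10) turned to decreases with no scaling and with ERCC scaling, and with ERCC scaling 4 genes of the list were called higher and 3 lower. Over all genes tested, 5560 were called with ERCC scaling, 32.6% of them higher, against 13510 and 50.8% in the main fit. The higher calls of *Prkaca* and *Prkar1a* were then lost, as were the lower calls of *Prkacb*, *Prkar2a*, *Rps6ka2*, *Gsk3b*, *Ppp1ca* and *Ppp2ca*. *Prkacb* (-0.08) was also not called with DESeq2 or after leaving out any one of D0 replicate 2 and D5 replicates 2 and 3. The calls of *Prkce* and *Camk2g* were also lost without D0 replicate 1, which left 7 higher, and that of *Prkce* without D0 replicate 2 or D5 replicate 2.

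The genes whose TPM across the 6 libraries was most like that of each tested member were found by the root mean square difference of log2(TPM + 0.1), over all genes tested. *Mybph* was closest to *Tnni2*, at a difference of 0.17, followed by *Mymk*, the fusion protein myomaker, at 0.46 and *Myog*, the transcription factor myogenin, at 0.59. *Tnni2* had 4.63 TPM at D0 and 1765 TPM at D5 as means of 3 libraries, beside 5.36 and 1854 for *Mybph*. *Mybpc2* was closest to *Myl2*, the slow regulatory light chain, at 0.19, then to *Hephl1* at 0.25 and the microRNA precursor row *Mir133a-2* at 0.26. *Mybpc1* was closest to *Mfsd7a*, *Dhrs3* and *Ctrb1*, at 0.28, 0.28 and 0.30. The measure covers 2 stages, so closeness means a like level in myoblasts and a like level in myotubes. *Mybpc2* and its 3 closest genes all had mean D0 levels below the 0.1 TPM added, so their closeness rests on the D5 level.

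Genes next to the members on the chromosome were read as well, the nearest 3 protein-coding genes on each side. Of these 30 neighbors 6 were not tested. Among those tested, 15 were higher at D5, 6 were lower and 3 passed in neither direction, beside 42.2% higher and 40.8% lower of all genes tested. *Chil1*, *Nr1h3* and *Sypl2* passed the filter through their D5 counts alone, so they could not have been called lower. With ERCC scaling 6 neighbors were higher and 4 lower, and with no scaling 9 and 13. Over all genes tested, 5560 were called with ERCC scaling, 32.6% of them higher. With no scaling 14306 were called, 23.4% of them higher, against 13510 and 50.8% in the main fit. At the *Mybph* locus *Chil1*, a chitinase-like gene 3266 bases away, had 0, 0 and 1 counts at D0 and 65, 55 and 53 at D5, at least 30.8-fold more. *Myog*, 88756 bases away on the other side, rose from 112, 124 and 94 counts to 12920, 12775 and 12737, a log2 fold change of 7.54 ± 0.0550 (SE), and *Ppfia4* rose by 3.51. *Btg2*, the third gene on the side of *Chil1*, had a log2 fold change of -0.09 with an edgeR adjusted p of 0.0601. Next to *Mybpc2*, *Fam71e1* lies 212 bases away and had 29, 56 and 43 counts at D0 and 28, 35 and 32 at D5, ranges that overlap (edgeR adjusted p = 0.294). *Pold1*, a DNA polymerase subunit on the other side of *Mybpc2*, fell by 2.83 on the log2 scale. Next to *Mybpc3*, *Madd*, 843 bases away, rose by 1.50 and *Nr1h3*, undetected at D0, at least 14.2-fold, while *Spi1* had 0, 0 and 1 counts at D0 and 4, 3 and 1 at D5. Next to the undetected *Mybphl*, *Sort1* rose by 1.88 and *Sypl2*, undetected at D0, at least 48.2-fold, and *Psrc1* fell by 1.11. Next to *Mybpc1*, *Chpt1* rose by 1.24 and *Utp20* fell by 1.30 on the log2 scale. The increases of *Chpt1*, *Madd*, *Psmc3* and *Josd2* were no longer called with ERCC scaling, nor were the decreases of *Tmem183a* and *Sars*. Of the 15 increases, those of *Arl1*, *Nr1h2*, *Slc39a13*, *Acp2* and *Psma5*, from 0.21 to 0.45, turned to decreases with no scaling and with ERCC scaling.

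**Figure D5:**
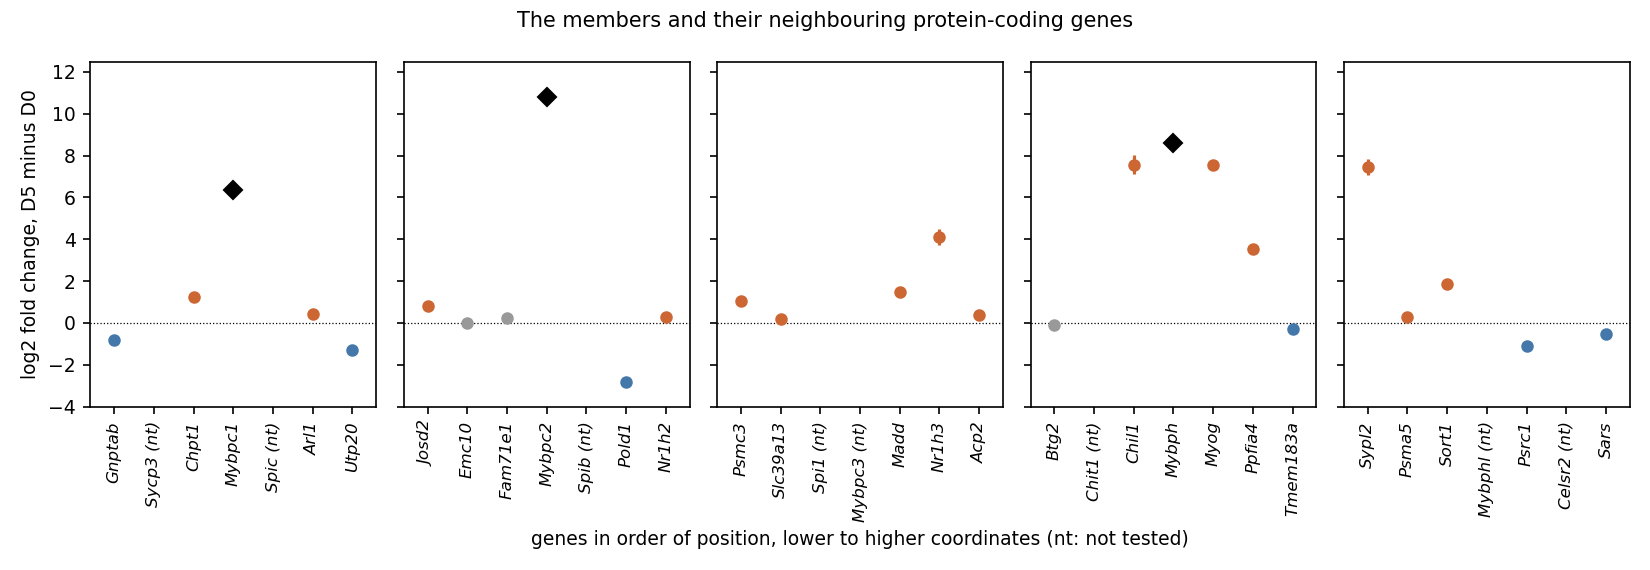
Log2 fold change (D5 minus D0, edgeR, bars are SE) of each member (black diamond) and of the 3 nearest protein-coding genes on each side, in order along the chromosome, with orange for higher, blue for lower and gray for no call. *Myog* beside *Mybph* lies at 7.54, the points of *Chil1*, *Nr1h3*, *Sypl2* and *Mybpc2*, undetected at D0, are fitted values and no measured folds, and the tested neighbors of *Mybpc2* lie between -2.83 and 0.80.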

How the data were processed

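RNA-seq was analysed for 6 C2C12 libraries, 3 at D0 and 3 at D5, grouped by their titles. The authors deposited raw counts per gene from featureCounts on GRCm38 (mm10), without normalization. The labels name NGS-QC-Toolkit 2.3.3, Tophat2 2.0.0 and DESeq2 1.6.3, whereas the study's methods name FastQC and HISAT2. The annotation release, strand setting, read length and handling of reads with several matches are not given in the sources used here, so reads of overlapping or similar genes may be lost or split.

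The 92 ERCC rows (0.720% to 2.09% of counts) and 1 unnamed row equal to each column's total were left out. Gene IDs without their version were matched to GENCODE M21 for 54488 of 54525 genes (99.932%). This gave positions and exonic lengths, and TPM was computed from these lengths. TMM factors, CPM and the quasi-likelihood test came from edgeR 4.0.16 in R 4.3.3 after filterByExpr, with p-values adjusted by Benjamini-Hochberg over 16290 genes and a threshold of 0.05. The SE is the size of the log2 fold change over the square root of F. The test was checked on simulated counts. Chi-square over degrees of freedom between replicates was 2.16 to 3.45, above sampling noise.

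The members and gene lists were chosen with earlier results of these data known. Genes named are the members, the list members, the 3 nearest protein-coding genes on each side and the 3 genes most alike. DESeq2 1.42.0, other scalings and filters, leaving out each library, a replicate block and other gene lengths were tried. No protein sequences were used here, and 1 listed gene is not reported here by name.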

Additional observations from a re-analysis of the deposited data

How the results depend on the processing

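*Mybpc1*, *Mybpc2* and *Mybph* were called higher at D5 under every alternative in which they were tested, with log2 fold changes of 5.68 to 6.61, 10.15 to 13.12 and 7.91 to 8.63. *Mybpc2* was not tested where at least 10 counts were asked of every library, and *Mybphl* could be fitted under none. *Mybpc3*, at 1.42 on the log2 scale against 3 counts and with no test, was called once the filter was dropped (fitted log2 fold change 5.70). With no count at D0, only a higher call was possible for it. Leaving out each library gave 13236 to 13599 genes called, against 13510 with all 6. With ERCC scaling, 5560 genes were called, and 4 kinases and phosphatases were higher instead of 9. The ERCC share of counts ranged from 0.720% to 2.09% within D5, so this scaling may add spread between replicates. With at least 10 counts in every library, 5 slow fiber genes were tested and higher instead of 8, because the others were filtered out. Per-length values moved with the length used. The D5 share of *Mybpc1* was 2.98% with the longest transcript, 4.90% with counts and 1.41% with exonic length not shared with the opposite strand (an alternative chosen after seeing the data). That of *Mybpc2* was 2.40% with counts and 0.865% unshared, that of *Mybpc3* 0.0133% with counts, and that of *Mybph* 95.4%, 92.7% and 97.7% with the 3 lengths in that order. The ratio of MyBP-C to myosin heavy chain was 1.77%, 1.12% and 1.71%, against 1.68%. The D5 ratio of *Mybph* to myosin heavy chain (38.1%) was 36.9%, 14.2% and 73.5% with these lengths, and that of *Mybph* to *Mybpc1* (36.8) was 32.0, 18.9 and 69.4, also computed after seeing the data. No fold change of a member reversed. Counts within 1.5 times of the value reported were not treated as moved, though some changed, such as kinases and phosphatases higher (6 with no scaling) and thick filament partners higher (12 with at least 10 counts in every library). The titles number the libraries without stating a pairing. Deviations of same-numbered libraries correlated at only 0.03, 0.06 and 0.03, although each correlated best with its own number. Whether they were paired cannot be told from these values. With the number as a replicate block, 13558 genes were called, the log2 fold changes were 6.36, 10.78 and 8.59, and no call on a member or count of a list changed. At 3 counts per library, depth limited what could be read of *Mybpc3* and *Mybphl*.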
